A study of Mus musculus with 24 samples.

Results

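The comparison described here set mice fed intact casein against mice fed free amino acids, with methionine at the control level of 0.86% in both diets, in inguinal white fat (IWAT), a depot that lies under the skin of the groin. Its members were the 6 casein control and 6 elemental control libraries, chosen by their diet labels, out of 24 libraries in the series. All mice were male C57BL6/J. They began their diets at 5 weeks of age, ate them for 12 weeks, and were killed after a 4 h fast at 4 months of age. The elemental control diet supplied protein as elemental (free) amino acids, and the casein control diet supplied it as unmodified casein in pellets. The other 12 libraries came from methionine-restricted (MR) diets with 0.17% methionine, made either with elemental amino acids (elemental MR) or with casein whose methionine was destroyed by oxidation and then added back to that level (oxidized casein MR). They served here to estimate the spread between mice and to set casein against elemental amino acids at low methionine, where the casein was oxidized. Each library is 1 mouse with its own number in the labels, and 6 of the 8 mice of each diet group are represented. Other ways in which the casein and elemental diets may differ, and food intake or body weight, are not in the files used here. The series design text speaks of liver, while its title and the sample source name IWAT. Adipocyte markers summed to at least 30564 CPM in every control library, and hepatocyte markers to at most 1369 CPM in 11 of the 12 and to 9915 CPM in the last.

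White adipocytes store energy as triglyceride, whose fatty acids come from the blood or are built from acetyl-CoA by de novo lipogenesis. In that route glucose is broken down to pyruvate, pyruvate enters the mitochondrion and is turned into citrate, and citrate returns to the cytosol to give the acetyl-CoA that acetyl-CoA carboxylase and fatty acid synthase join into fatty acids with NADPH as the reductant. The genes of the route are known to be controlled together by the transcription factors SREBP-1c and ChREBP, which respond to insulin and to carbohydrate.

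Levels are given as CPM, the usual depth-scaled read count, with library totals scaled by TMM. For the 6 mice of a diet the lowest, the median and the highest value are given in that order. Reads came from the 3′ end of transcripts, so a CPM value does not grow with transcript length. A gene is called where the edgeR quasi-likelihood test gave a Benjamini-Hochberg adjusted p under 0.05 over all genes tested, and a standard error (SE) refers to the log2 scale. Fold changes are casein control over elemental control unless stated.

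Casein-fed mice had lower levels of lipogenic genes. Of 15176 genes tested, 98 were lower and 2 were higher in casein controls, which is 0.659% of genes called in either direction, 0.646% lower and 0.0132% higher. The fold of the lower genes ran from 1.37 to 8.30 with a median of 2.05. At an unadjusted p under 0.05, 1448 genes were lower (9.54%) and 460 higher (3.03%). The values of the diets did not overlap for 66 of the 98 lower genes and for both higher genes, against 0.751% (lower) and 0.178% (higher) of all genes tested. The called genes were chosen on these same values, so their lack of overlap adds no support. The median log2 fold change of all genes was 0.02. The plot of fold changes against level shows the called genes on the lower side over the whole range of levels.

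**Figure D1:**
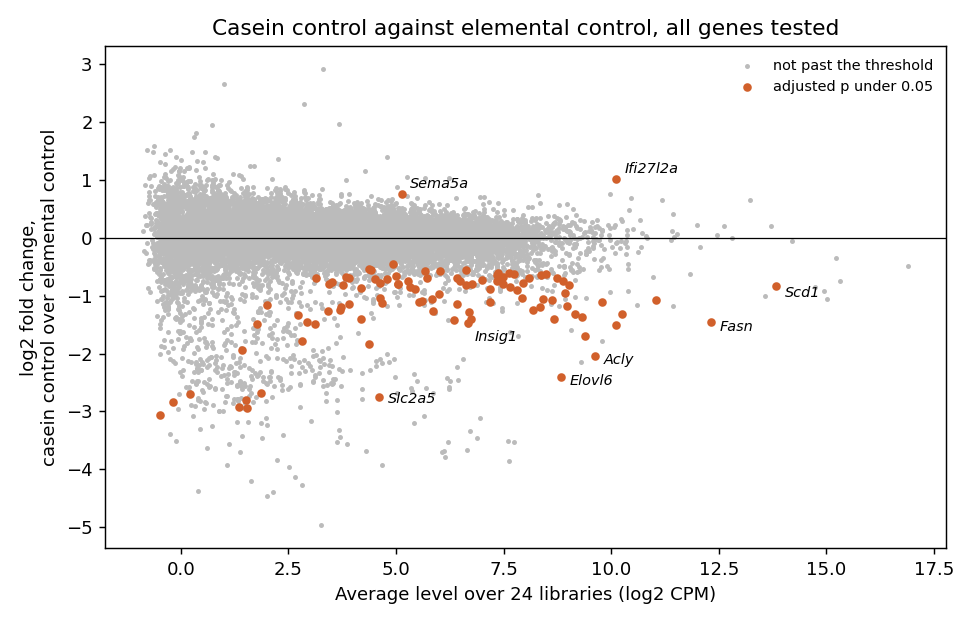
Each point is 1 of 15176 genes, with its average level (log2 CPM over 24 libraries) on the x axis and its log2 fold change, casein control over elemental control, on the y axis. Orange points passed an adjusted p of 0.05, 98 below the line at 0 and 2 above it; grey points did not pass.

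The number of calls differed between fits and with single libraries left out. With the 12 control libraries alone, filtered and scaled anew (14628 genes tested), edgeR called 2 genes, Acss2 and Ank, and DESeq2 on all 24 libraries called 417 (42 higher, 375 lower). The count was 24 without elemental control 3, 30 without elemental control 1, 33 without casein control 6, 35 without casein control 1, 53 without elemental control 6 and 55 without casein control 4. It was 177 without casein control 5, 194 without elemental control 4 and 202 without elemental control 2. All 98 lower genes kept a negative fold change in each of these left-out fits. They were chosen on the same libraries, so their signs add no support. Of the 98, 23 were called in all 12 of those fits. Those 23 include Acly, Slc25a1, Acss2, Acaca, Fasn, Elovl6, Me1, Tkt, Insig1, Angptl8, Aldoa, Pdha1 and Pdhb. Within the diets, casein control 6 was the lowest casein library for 72 of the 98 genes and elemental control 1 the highest elemental library for 57. Without these 2 libraries together 6 genes were called. Casein control 6 also had the lowest adipocyte marker sum of the 12 control libraries, 30564 CPM. Its B cell and T cell marker sums were the highest, at 2041 and 676 CPM. The part of tissue composition in its low values was not tested.

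The 17 tested members of the fatty acid synthesis list (of 18 listed) had a median log2 fold change of -1.13, and 9 of them were lower in casein controls, or 52.9% against the 0.646% of all genes. No member was higher, 16 of 17 had a negative fold change, and the diets did not overlap for 8. The description follows the route from citrate to the finished fatty acid. Slc25a1, the carrier that exports citrate from mitochondria, stood at 385, 446 and 714 CPM in elemental controls and 101, 196 and 252 CPM in casein controls. Every casein library lay below every elemental one, with a 2.66-fold lower level (log2 fold change -1.41, SE 0.21, adjusted p = 0.00247). Acly, ATP citrate lyase, which splits that citrate into acetyl-CoA, stood at 642, 1048 and 1631 CPM and 139, 258 and 397 CPM. The diets did not overlap and the level was 4.10-fold lower on casein (log2 fold change -2.04, SE 0.32, adjusted p = 0.00427). The gene lies on chromosome 11 at 100476353 to 100528000 of GRCm38. Acss2, which makes acetyl-CoA from acetate, stood at 107, 147 and 196 CPM and 48.6, 64.7 and 74.9 CPM, again without overlap (2.43-fold lower, SE 0.19, adjusted p = 0.00247).

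The committed and elongating steps followed the same direction. Acaca, acetyl-CoA carboxylase, which makes malonyl-CoA, ran at 607, 666 and 1163 CPM with elemental amino acids and 140.2, 270.4 and 552 CPM with casein. The highest casein library stayed below the lowest elemental one, and the level was 2.60-fold lower (SE 0.24, adjusted p = 0.00947). Fasn, fatty acid synthase, ran at 4863, 5442 and 9426 CPM and 974, 2067 and 3994 CPM, a 2.75-fold lower level without overlap (log2 fold change -1.46, SE 0.26, adjusted p = 0.00945). Elovl6, which lengthens palmitate to stearate, had the widest spread of the route, with 308, 559.8 and 1142 CPM and 43.1, 105 and 245 CPM. It was 5.27-fold lower on casein (log2 fold change -2.40, SE 0.44, adjusted p = 0.0117), and the diets did not overlap. Hsd17b12 and Tecr, which carry out later steps of the same elongation cycle and lie outside the list, were 1.62-fold and 1.53-fold lower (adjusted p = 0.0347 and 0.0458). They were called in 5 and 3 of the 12 fits with 1 control library left out. Scd1, the desaturase that makes monounsaturated fatty acids, was 1.77-fold lower (adjusted p = 0.0490) with overlap, at 11512, 17019 and 21234 CPM and 5556, 9339 and 14154 CPM. Its call held in 2 of those 12 fits. Pcx, pyruvate carboxylase, which replenishes oxaloacetate for citrate export, was 1.75-fold lower (adjusted p = 0.0256) at 158, 190.4 and 254 CPM and 56.7, 126 and 137 CPM.

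**Figure D2:**
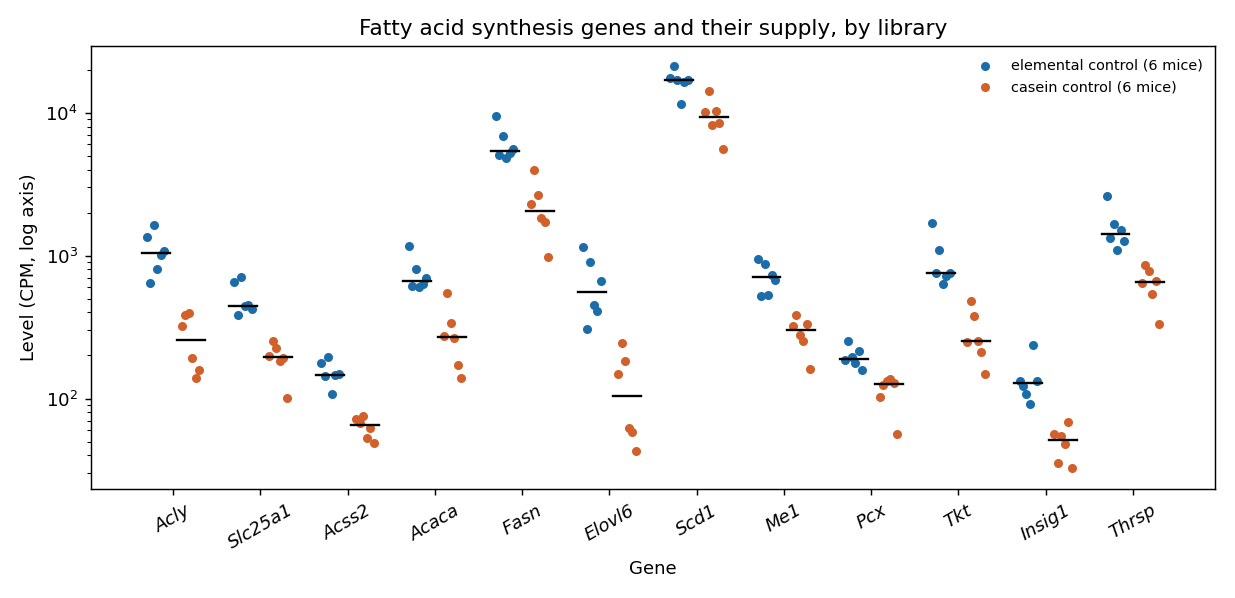
Each point is the level (CPM, log axis) of a gene in 1 library, blue for the 6 elemental controls and orange for the 6 casein controls, and black lines are medians. In 11 of the 12 genes drawn every casein library is below every elemental library; the values of Scd1 overlap.

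The fatty acid synthesis calls moved with the setting. Of the fatty acid synthesis genes, 7 to 10 were called when 1 control library was left out, 8 without elemental controls 2 and 6 together, 3 without elemental control 1 and casein control 6 together, 11 in DESeq2, 1 (Acss2) in the fit of the 12 control libraries alone and 0 in the libraries of all diets without lymph node transcripts, which set 2 casein controls against 2 elemental controls. Their median log2 fold change lay between -1.34 and -0.86 in all of these.

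NADPH for the chain-building steps comes from malic enzyme and the pentose phosphate pathway. All 11 members of the cytosolic NADPH supply list had a negative fold change (median -0.34). Of them 3 were called lower, against 0.646% of all genes (2 to 5 with 1 control library left out). Me1, cytosolic malic enzyme, which also belongs to the fatty acid synthesis list, stood at 524, 705 and 955 CPM and 162, 301 and 383 CPM, 2.48-fold lower on casein without overlap (SE 0.21, adjusted p = 0.00510). Tkt, transketolase, stood at 636, 756 and 1680.3 CPM and 149, 252 and 484 CPM, 3.26-fold lower without overlap (SE 0.28, adjusted p = 0.00646). Its partner transaldolase, Taldo1, was 1.68-fold lower (adjusted p = 0.0341). No other member of the list was called. Tkt and Taldo1 belong to the non-oxidative branch of the pentose phosphate pathway, which does not itself make NADPH, so Me1 was the called gene that does.

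Regulators of the route were called less often, and this difference between lists was not tested. Among all genes 0.646% were called lower. Insig1, which holds the SREBP precursor in the endoplasmic reticulum and is itself an SREBP target, stood at 92.2, 128 and 237 CPM and 32.4, 51.3 and 69.0 CPM, 2.78-fold lower on casein (log2 fold change -1.48, SE 0.22, adjusted p = 0.00247) without overlap. Thrsp, a nuclear protein tied to lipogenesis, was 2.49-fold lower (adjusted p = 0.0218) at 1091, 1419 and 2622 CPM and 331, 652 and 858 CPM. These were the 2 called genes among 14 lipogenic regulators, whose median log2 fold change was -0.23, and 1 to 3 were called with 1 control library left out. The transcripts of the transcription factors themselves did not pass. Srebf1, counted over all its isoforms, stood at 70.3, 81.5 and 108 CPM and 16.6, 62.0 and 97.5 CPM (log2 fold change -0.45, SE 0.27, adjusted p = 0.536). Mlxipl, which encodes ChREBP, stood at 48.8, 65.6 and 118 CPM and 19.7, 41.2 and 50.8 CPM (log2 fold change -0.91, SE 0.24, adjusted p = 0.0800). Angptl8, an insulin-responsive secreted inhibitor of lipoprotein lipase, was 2.66-fold lower (adjusted p = 0.00767) at 15.7, 20.9 and 26.2 CPM and 4.07, 8.27 and 9.79 CPM.

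The promoters of Fasn, Insig1 and Slc25a1 are printed because these genes moved together and represent synthesis, its control and citrate supply. They are RefSeq windows of GRCm38.p6, 5′ to 3′ on the gene's strand, that end at the base before the annotated gene. Capitals mark CCAAT, the box bound by NF-Y, and CACGTG, an E-box of the type bound by basic helix-loop-helix factors such as USF, both searched on both strands.
Fasn, chr11:120824548-120824797, minus strand: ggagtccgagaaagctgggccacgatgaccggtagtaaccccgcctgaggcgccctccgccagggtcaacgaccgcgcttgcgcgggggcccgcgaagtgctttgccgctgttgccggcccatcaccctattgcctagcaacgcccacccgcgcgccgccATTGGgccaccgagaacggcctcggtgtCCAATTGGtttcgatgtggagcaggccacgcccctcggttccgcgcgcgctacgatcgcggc
Insig1, chr5:28071162-28071362, plus strand: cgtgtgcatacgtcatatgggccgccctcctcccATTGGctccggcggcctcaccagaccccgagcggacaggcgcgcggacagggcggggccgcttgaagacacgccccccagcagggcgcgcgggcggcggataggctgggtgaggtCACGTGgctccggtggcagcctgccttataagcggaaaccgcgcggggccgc
Slc25a1, chr16:17928220-17928469, minus strand: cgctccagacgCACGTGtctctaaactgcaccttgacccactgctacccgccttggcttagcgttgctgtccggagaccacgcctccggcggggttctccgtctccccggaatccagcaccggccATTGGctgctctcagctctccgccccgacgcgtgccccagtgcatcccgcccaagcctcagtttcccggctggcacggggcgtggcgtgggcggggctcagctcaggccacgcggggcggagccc
The Fasn window holds 3 CCAAT matches, of which a pair overlaps, and no CACGTG. The windows of Insig1 and Slc25a1 hold 1 match to each motif. Over the 250 bases before the start, CCAAT occurred in 34.8% and CACGTG in 7.98% of 13995 RefSeq promoters, which belong to 10972 of the genes tested. In the 97 promoters of the 77 matched genes lower on casein, the shares were 38.1% and 8.25%. Of the 10 promoters of called fatty acid synthesis genes, 5 held CCAAT and 2 held CACGTG. TCACNCCAC, a form of the sterol regulatory element bound by SREBPs, occurred in 0.957% of all promoters, in 1 of the 97 and in 0 of the 10. A match is a string of letters in a window and not evidence of binding.

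Esterification and uptake changed in single genes. The shares over all genes were 0.646% called lower and 9.54% lower at an unadjusted p under 0.05. Agpat2, which adds the second fatty acid to the glycerol backbone, was 2.15-fold lower on casein (SE 0.22, adjusted p = 0.0190), at 675, 903 and 1599 CPM and 314, 430.2 and 609 CPM, without overlap. Gpam, which adds the first, was 2.24-fold lower (adjusted p = 0.0314). They were the 2 of 17 glyceride synthesis genes called (median log2 fold change -0.28). Neither was called without elemental control 1 or 3 or casein control 1 or 6, 1 gene of the list without casein control 2 or 4, and 3 without elemental control 2 or 4. Fabp5, a fatty acid carrier protein, was the 1 of 13 fatty acid uptake genes called, 1.85-fold lower at 115, 144 and 199.9 CPM and 56.0, 86.7 and 95.9 CPM (adjusted p = 0.0156). It was not called without elemental control 1 or 3. None of 20 lipolysis and lipid droplet genes was called in edgeR with all libraries, and 6 were lower at an unadjusted p under 0.05. DESeq2 called 2 of them, and edgeR 1 without elemental control 2 or 4 or casein control 5. Plin2, a lipid droplet coat protein, stood at 332, 550.5 and 974 CPM and 159, 261 and 398 CPM and did not pass (adjusted p = 0.0654).

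Transcripts of sugar breakdown fell at several steps. Of 22 genes for glucose uptake and glycolysis, 4 were lower (0.646% of all genes) and none higher. At an unadjusted p under 0.05, 13 were lower (9.54% of all genes), and the median log2 fold change was -0.85. Aldoa, aldolase, stood at 1668, 2243 and 3367 CPM and 637, 1159.7 and 1341 CPM, 2.12-fold lower without overlap (SE 0.19, adjusted p = 0.00947). Pkm, pyruvate kinase, was 2.26-fold lower (adjusted p = 0.0341) and Ldha, lactate dehydrogenase, 1.62-fold lower (adjusted p = 0.0347). Pkm was called in 6 and Ldha in 4 of the 12 fits with 1 control library left out. Gapdh was 2.20-fold lower (adjusted p = 0.0112), a value that is uncertain because this gene has many near-identical pseudogenes. Slc2a5, a fructose transporter outside that list, ran at 11.2, 30.9 and 59.9 CPM and 0.318, 4.69 and 12.2 CPM and was 6.70-fold lower with overlap (SE 0.61, adjusted p = 0.0381). It was called in 5 of those 12 fits. Slc2a4, the insulin-responsive glucose transporter GLUT4, did not pass (log2 fold change -0.55, SE 0.18, adjusted p = 0.149).
Skeletal muscle also expresses Aldoa, Pkm, Ldha and Gapdh, and elemental control 2 held muscle transcripts. Without elemental controls 2 and 6 the glucose uptake and glycolysis list had 6 called genes and a median of -0.62. It had 2 without elemental control 1, 3 or 6 or casein control 1 or 6, 9 without elemental control 2, 10 in DESeq2 and 8 with a term for lymph node presence.

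A further 2 lists were drawn up after the values were seen, so their counts are a description. In the step from pyruvate to acetyl-CoA, 6 of 14 genes were lower: both subunits of the mitochondrial pyruvate carrier, Mpc1 (2.68-fold) and Mpc2 (1.94-fold), and 4 subunits of the pyruvate dehydrogenase complex, Pdha1 (2.08-fold), Pdhb (2.37-fold), Dlat (2.16-fold) and Dld (1.66-fold). Pdhb, the beta subunit of the first enzyme, stood at 205, 284 and 541 CPM and 81.9, 131 and 198 CPM, with no overlap (SE 0.23, adjusted p = 0.0125). Of the pyruvate to acetyl-CoA genes 2 were called without elemental control 3 and 4 without elemental control 1, casein control 1 or casein control 6. In glycogen metabolism 5 of 22 genes were lower, among them the branching enzyme Gbe1 (1.81-fold), the UDP-glucose supplier Ugp2 (1.61-fold), the phosphorylase Pygl (2.29-fold) and the synthase Gys2 (2.05-fold). Enzymes of glycogen making and of glycogen breakdown were both among them. Pygl stood at 283, 336 and 568 CPM and 73.7, 167 and 229 CPM without overlap (SE 0.24, adjusted p = 0.0190). The glycogen metabolism count was 1 without elemental control 3, 2 without elemental control 1 or casein control 1, and 3 without elemental control 6, casein control 4 or casein control 6.

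Few genes of the mitochondrial lists passed. Over all genes 0.646% were called lower and 9.54% were lower at an unadjusted p under 0.05. All 48 nuclear oxidative phosphorylation genes had a negative fold change (median -0.56) and 42 were lower at an unadjusted p under 0.05, yet 1 passed, Atp5d of ATP synthase (1.56-fold lower, SE 0.14, adjusted p = 0.0340). The nuclear oxidative phosphorylation count was 32 in DESeq2, 18 with lymph node presence as a term, 19 without elemental control 2, 11 without elemental control 4, 2 without casein control 2 or 5, and 0 without elemental control 1, 3, 5 or 6 or casein control 1, 4 or 6. Outside that list 2 complex I genes passed, Ndufa12 (1.56-fold) and Ndufa11 (1.53-fold), as did Vdac1, the outer membrane channel (1.55-fold, at 183, 232 and 264 CPM and 114, 149 and 174 CPM without overlap, adjusted p = 0.00767). Of the 12 fits with 1 control library left out, Ndufa12 was called in 6, Ndufa11 in 3 and Vdac1 in 12. In the TCA cycle list 20 of 20 genes had a negative fold change (median -0.62) and 17 were lower at an unadjusted p under 0.05, with Dld alone called. The TCA cycle count was 8 without elemental control 2, 4 without elemental control 4, 2 without casein control 3, 0 without any one of the other control libraries save casein control 5, and 11 in DESeq2. None of 23 fatty acid oxidation genes was called in edgeR with all libraries, and 18 were lower at an unadjusted p under 0.05. The fatty acid oxidation count was 11 in DESeq2, 5 without elemental control 2, 3 with lymph node presence as a term, 2 without casein control 3 and 1 without casein control 2. Hadhb, a subunit of the trifunctional enzyme of that pathway, stood at 89.0, 204 and 357 CPM and 52.1, 88.7 and 152 CPM (adjusted p = 0.0720).

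Transcripts made in the mitochondrion itself took a smaller share of reads on casein. They made up 26.2% ± 3.97 of all reads in elemental and 18.8% ± 3.61 in casein controls (SD, n = 6 each), a difference of -7.38 percentage points (2-sided exact permutation p = 0.0108). The libraries ran from 21.6% to 31.1% and from 15.1% to 24.2%, so the groups overlapped. With 1 library left out the difference lay between -8.45 and -6.40 points and the exact permutation p between 0.00866 and 0.0216. Without the ribosomal RNA genes of the mitochondrion it was -5.36 points (exact permutation p = 0.0281). The share counts all 23 mitochondrially encoded genes in the counts, while the list of mitochondrially encoded transcripts names 15, of which 10 were found and tested. All 10 were lower at an unadjusted p under 0.05, against 9.54% of all genes, and none was called in edgeR with all libraries. The closest was mt-Nd2, a complex I subunit, at 23859.7, 30742 and 40108 CPM and 10552, 16776 and 22156 CPM (log2 fold change -0.93, SE 0.22, adjusted p = 0.0524). The mitochondrially encoded count was 8 in DESeq2, 1 in limma voom, 5 with lymph node presence as a term, 3 without elemental control 2, 2 without elemental control 4 or casein control 3, and 1 with DESeq2 size factors or the stricter filter. Leaving all 23 mitochondrially encoded genes out of library totals and tests gave 102 calls in place of 100. In bulk tissue, fewer cells of a type and less RNA per cell cannot be told apart.

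**Figure D3:**
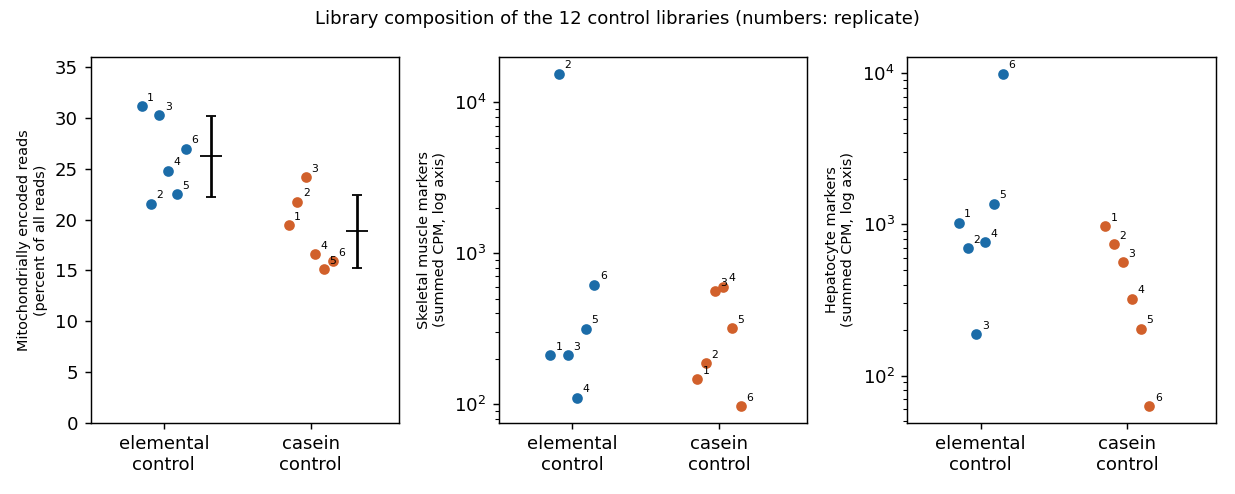
Points are the 12 control libraries, labelled by replicate number, and the panels give the percent of reads from mitochondrially encoded genes (bars: mean ± SD, n = 6) and the summed CPM of skeletal muscle and hepatocyte markers on log axes. Elemental control 2 stands at 15441 CPM of muscle markers and elemental control 6 at 9915 CPM of hepatocyte markers.

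Thermogenic genes, the programme of heat-producing beige adipocytes, had a median log2 fold change of -0.87 with 22 of 23 negative. At an unadjusted p under 0.05, 13 were lower (9.54% of all genes), and 1 was called (0.646% of all genes lower). That gene was Kcnk3, a potassium channel of brown and beige adipocytes (1.72-fold lower, SE 0.18, adjusted p = 0.0484). Ucp1, the uncoupling protein that defines these cells, stood at 15.6, 352 and 1211 CPM in elemental and 7.12, 71.7 and 431 CPM in casein controls. The libraries of each diet spread over more than the difference between the medians, and Ucp1 did not pass (log2 fold change -1.78, SE 0.85, adjusted p = 0.391). Chchd10, a mitochondrial intermembrane protein, was 2.84-fold lower (SE 0.35, adjusted p = 0.0484) with overlap, and was called in 4 of the 12 fits with 1 control library left out. The thermogenic genes called numbered 4 without elemental control 2 and 0 without elemental control 1, 3, 5 or 6 or casein control 1, 4 or 6.

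Cholesterol and amino acid genes held a few further calls, beside 0.646% of all genes called lower. In cholesterol synthesis and uptake 20 of 22 genes had a negative fold change (median -0.55), and 2 were lower, Nsdhl of the sterol pathway (1.80-fold, adjusted p = 0.0396) and Acat2, a cytosolic thiolase (1.74-fold, adjusted p = 0.0484). Acat2 lies beside its close paralog Acat3, so its value is uncertain. The cholesterol synthesis and uptake count was 7 without casein control 5, 3 without elemental control 2 or 4 and 0 without any one of the other 9 control libraries. Aacs, which activates acetoacetate for lipid synthesis, was 1.95-fold lower (adjusted p = 0.0235). Bckdk, the kinase that restrains branched-chain amino acid breakdown, was 1.49-fold lower (adjusted p = 0.0190), the 1 gene called of 23 in that catabolic list, and was not called without elemental control 1 or 3 or casein control 1 or 6. Deptor, an inhibitor within mTOR complexes, was 1.76-fold lower (adjusted p = 0.0461), 1 of 30 genes of mTORC1 and amino acid sensing, and was called in 3 of the 12 fits with 1 control library left out and not in limma voom. Gclm, a subunit of the enzyme that starts glutathione synthesis, was 1.63-fold lower (adjusted p = 0.0363), called in 4 of the 12 fits with 1 control library left out and not in limma voom. Ank, a pyrophosphate transporter, had the smallest p of all genes, at 55.0, 65.0 and 81.5 CPM and 25.9, 32.5 and 37.9 CPM without overlap (2.08-fold lower, SE 0.15, adjusted p = 0.00247). Hsd11b1, which regenerates active glucocorticoid, was 1.87-fold lower (adjusted p = 0.0292).

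The ATF4 targets, amino acid transporters and aminoacyl-tRNA synthetases held no call in edgeR with all libraries, where 0.659% of all genes were called. At that share a list of this size may well hold no call, so its absence says little about the members. The same holds for the other lists of this paragraph. At an unadjusted p under 0.05, 9.54% of all genes were lower and 3.03% higher. Of 33 ATF4 targets, the genes induced when amino acids run short, none was called, 2 were lower and none higher at an unadjusted p under 0.05, and their median log2 fold change was 0.03. Asns, asparagine synthetase, stood at 23.6, 30.9 and 37.0 CPM and 15.8, 25.3 and 37.3 CPM (log2 fold change -0.20, SE 0.19). Psat1, of serine synthesis, had a log2 fold change of -0.0026 (SE 0.31). None of 33 amino acid and peptide transporters and none of 20 aminoacyl-tRNA synthetases was called, with 4 and 0 past an unadjusted p of 0.05 and 1 and 0 called in DESeq2. Without casein control 5 edgeR called 1 transporter. DESeq2 and limma voom called none of the ATF4 targets. White adipocyte identity genes had a median of -0.06 (0 of 20 called, 2 at an unadjusted p under 0.05), insulin signalling genes 0.01 (0 of 21, 0 unadjusted), collagens and extracellular matrix genes 0.08 (0 of 31, 0 unadjusted), macrophage and inflammation genes 0.10 (0 of 26, 0 unadjusted) and cytosolic ribosomal proteins 0.10 (0 of 74, 0 unadjusted). DESeq2 and limma voom also called none in these 5 lists, and edgeR with lymph node presence as a term called 1 adipocyte identity gene. The sign of each of these medians, that of the ATF4 targets included, changed in at least 1 fit with a library left out. Leptin, Lep, spread from 145 to 810.4 CPM in elemental and 102 to 2195 CPM in casein controls, with a log2 fold change of 0.75 (SE 0.64) that was -0.34 without casein control 5. Adiponectin, Adipoq, had a log2 fold change of 0.07 (SE 0.28), whose sign changed with the library left out.

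Of the 2 higher genes, Sema5a, a membrane-bound semaphorin, stood at 23.2, 30.7 and 34.7 CPM in elemental and 39.9, 47.7 and 60.8 CPM in casein controls. The diets did not overlap, and the level was 1.69-fold higher on casein (log2 fold change 0.76, SE 0.14, adjusted p = 0.0140). Ifi27l2a, an interferon-inducible gene, stood at 581, 776 and 1013 CPM and 1095, 1495 and 2474 CPM, again without overlap (2.03-fold higher, SE 0.24, adjusted p = 0.0484). Sema5a was called in 11 of the 12 fits with 1 control library left out, with an adjusted p of 0.0582 without elemental control 3. Ifi27l2a was called in 3 of the 12, with adjusted p between 0.0403 and 0.148, and not in limma voom (adjusted p = 0.0646). The interferon response list had no called member in edgeR, DESeq2 or limma voom (24 tested, median 0.09). None was past an unadjusted p of 0.05, where 9.54% of all genes were lower and 3.03% higher. Among the 10 genes next by p on the higher side, Prtn3, a neutrophil protease, stood at 1.92, 3.67 and 5.33 CPM and 3.94, 7.32 and 20.4 CPM (log2 fold change 1.36, adjusted p = 0.0776) and did not pass.

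**Figure D4:**
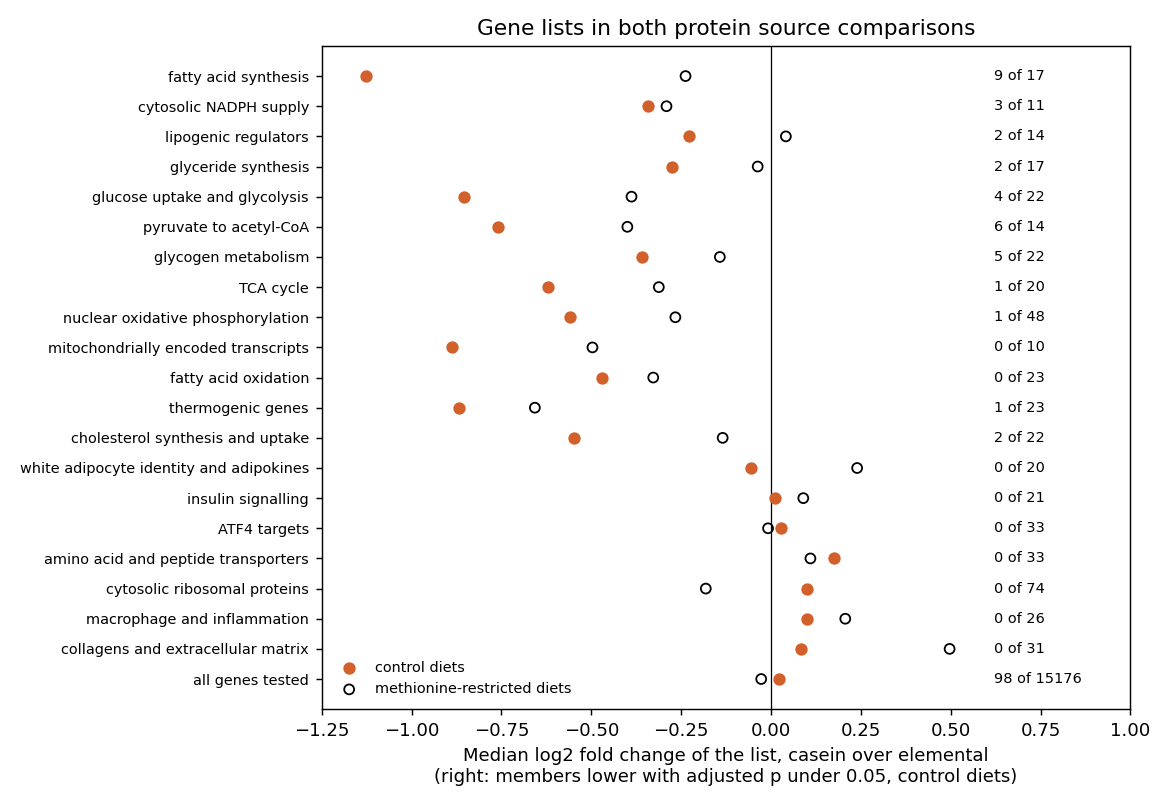
For each of the process lists drawn, the filled point is the median log2 fold change of casein control over elemental control and the open point that of oxidized casein MR over elemental MR; the counts at the right give the members lower with an adjusted p under 0.05 on the control diets. Of the lists drawn, fatty acid synthesis has the most negative control median, -1.13, with 9 of 17 members called.

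Other cell types in the fat pad were read from fixed markers. Skeletal muscle markers were lower in casein controls at an unadjusted p under 0.05 for 13 of 14 genes, hepatocyte markers for 9 of 10 and red blood cell markers for 5 of 7, against 9.54% of all genes. None was called in edgeR or limma voom, and 1 red blood cell marker was called in DESeq2. Muscle markers summed to 110 to 15441 CPM in elemental controls (616 CPM in the next highest library) and 97.0 to 598 CPM in casein controls. Hepatocyte markers summed to 187 to 9915 CPM (1369 CPM in the next highest) and 62.9 to 974 CPM, and red blood cell markers to 2883 to 11553 CPM and 2578 to 5386 CPM. No marker of these 3 lists was at 0 in all control libraries. Adipocyte markers summed to 37515 to 59788 CPM and 30564 to 69244 CPM, with 0 of 10 called. Without elemental controls 2 and 6, the libraries with the highest muscle and hepatocyte sums, 126 genes were called (1 higher, 125 lower), 75 of the 98 lower genes among them. The median log2 fold change of the muscle markers was then 1.01 in place of -3.53, and that of the hepatocyte markers -0.86 in place of -2.44. The red blood cell median was -0.94 in place of -0.93, and the part of blood in the results was not tested. Lymph node transcripts (B cell markers) were present in 4 of 6 libraries of each diet. In the fits split by these transcripts the MR libraries again helped to estimate the spread. With only the libraries of all diets that had them, 8 of them controls, 177 genes were called between the control diets (16 higher, 161 lower). With only those that lacked them, 4 of them controls, none was called in edgeR. With their presence as a term 313 were called (44 higher, 269 lower), all 98 lower genes included. Library totals were 11937056 to 19868913 reads in elemental and 8023612 to 14662176 in casein controls, and with every library thinned to the smallest total 98 genes were called (4 higher, 94 lower).

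The contrast of protein source at low methionine shares no library with the control comparison. It is not the same contrast, because its casein was oxidized and that of the control diet was unmodified. Protein source and oxidation cannot be told apart there or in the difference between the protein source effects. Unlike the control diets, the MR diets were unbalanced in lymph node transcripts, which were present in 5 of 6 elemental MR and 2 of 6 oxidized casein MR libraries. All 12 B cell markers had a negative fold change there (median log2 fold change -0.92). This imbalance also enters the difference between the protein source effects, and its part in the fold changes was not tested. With lymph node presence as a term, edgeR called 0 genes in either contrast. Between oxidized casein MR and elemental MR no gene was called in edgeR (0% of 15176; smallest adjusted p = 0.176), 476 genes (3.14%) were lower and 584 (3.85%) higher at an unadjusted p under 0.05, DESeq2 called 12 and limma voom 0. Of the 98 genes lower in casein controls, 94 also had a negative fold change there, against 54.4% of all genes, and 42 were lower at an unadjusted p under 0.05, against the 3.14% of all genes. Their median log2 fold change was -0.39 at low methionine and -1.03 in controls, beside -0.03 for all genes at low methionine. The 4 that were not negative were Scd1 (0.32, SE 0.20), Hsd11b1 (0.11, SE 0.19), Pcx (0.05, SE 0.17) and Insig1 (0.05, SE 0.22). Acly was at -0.68 (SE 0.31), Fasn at -0.45 (SE 0.25) and Elovl6 at -0.76 (SE 0.42). Sema5a and Ifi27l2a had log2 fold changes of 0.80 (SE 0.15, adjusted p = 0.176) and 0.99 (SE 0.24, adjusted p = 0.459) at low methionine, and Sema5a had the smallest p of all genes there.

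The difference between the protein source effects was itself tested. No gene passed (edgeR, smallest adjusted p = 0.703), 506 genes (3.33%) had an unadjusted p under 0.05, 319 (2.1%) of them more negative in controls, DESeq2 called 2 and limma voom 0. The difference was -1.53 (SE 0.31) for Insig1, -1.14 (SE 0.28) for Scd1, -1.36 (SE 0.44) for Acly and -1.01 (SE 0.36) for Fasn, on the log2 scale. All 98 lower genes were more negative in controls, but they were chosen by the control values that enter this difference, so that count supports nothing. The fatty acid synthesis list had a median log2 fold change of -0.24 at low methionine, with 11 of 17 members negative, beside -1.13 with 16 of 17 in controls. It was -0.39 for glucose uptake and glycolysis, -0.66 for thermogenic genes and -0.50 for mitochondrially encoded transcripts.

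**Figure D5:**
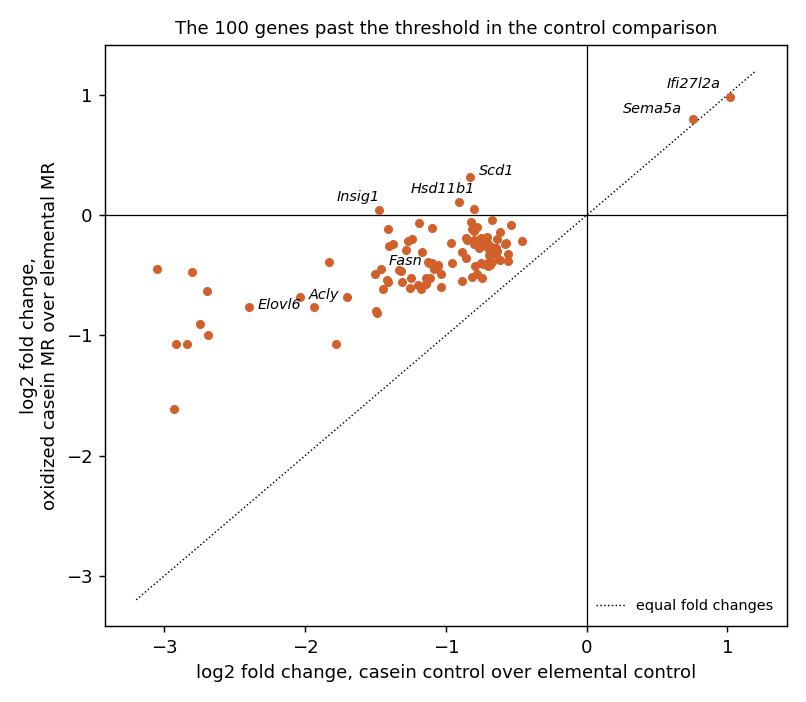
Each point is 1 of the 100 genes called between the control diets, with its log2 fold change there on the x axis and its log2 fold change between oxidized casein MR and elemental MR on the y axis; the dotted line marks equal fold changes. Points lie above the line on the lower side, where their choice by the x value places them, and 94 of the 98 lower genes are below 0 on the y axis.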

How the data were processed

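Total RNA of 24 IWAT samples was sequenced as 3′ mRNA libraries with 50 bp forward reads, per the labels' protocols. The authors deposited whole-number read counts for 16821 Ensembl genes; the submitters' processing notes name GRCm38, mm10, R 3.4.3 and DESeq2 1.18.1, while aligner, counter and strandedness are unnamed in the sources used here. Without the strand setting, reads of overlapping and antisense genes cannot be told apart, and 32 of the 98 lower genes, Acss2, Elovl6, Me1, Aldoa, Ank and Angptl8 among them, overlap a tested gene on the other strand in GENCODE. These overlaps are of whole gene spans, and their share over all genes tested was not counted. The smallest gene total is 72 reads, so rarer genes are not listed. A second deposited table of normalized values was not used here.

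Counts were tested with edgeR 4.0.16 in R 4.3.3: filterByExpr on diet groups (15176 genes kept, 1645 removed), TMM scaling, 1 mean per diet over all 24 libraries, robust quasi-likelihood F tests, 2-sided, with Benjamini-Hochberg adjustment over all genes tested and a threshold of 0.05. Each SE is the log2 fold change divided by the root of F. The script was tested on simulated counts. Contrasts were casein control minus elemental control, oxidized casein MR minus elemental MR, and their difference. The share of mitochondrially encoded reads was compared with a 2-sided exact permutation test. DESeq2 1.42.0, limma 3.58.1 (voom) and other filters, scalings and left-out libraries were alternatives. Symbols and gene positions came from GENCODE M21 (GRCm38), which matched 16771 identifiers, and promoters from RefSeq (GRCm38.p6).

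The comparison, 32 process lists and 14 marker lists were chosen with earlier results of these data known, and 2 more lists after the values were seen. Genes are named by rule: the 12 largest called changes in each direction among genes averaging log2 CPM 2 or more, the genes next by p where fewer were called, the smallest p, the highest level and every call of each process list, and a set list of genes such as Lep and Asns. Ank, Angptl8, Aacs, Vdac1, Hsd11b1, Hsd17b12, Tecr, Ndufa11, Ndufa12 and the genes of the closing observations, called but outside the rule, were picked after their values were seen. A few genes that the rule names are not reported here. Reads have no molecular identifiers, and errors therefore rest on the spread over mice. No 2 control libraries of a diet agreed within counting error (smallest chi-square per degree of freedom 15.3).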

Additional observations from a re-analysis of the deposited data

Results flagged for a closer look

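Of 186 groups of 6 libraries examined, 11 held a library far from the other 5, and chance alone sets a library apart in about 1 in 20 groups. Casein control 6 was the low one in 6 of them, and it had the lowest adipocyte marker sum of the control libraries, 30564 CPM. It stood at 101 CPM for Slc25a1 (184 to 252 CPM in the other casein controls), 56.7 CPM for Pcx (102 to 137 CPM), 194 CPM for Taldo1 (300.3 to 332 CPM), 4.07 CPM for Angptl8 (7.12 to 9.79 CPM), 73.7 CPM for Pygl (161 to 229 CPM) and 146 CPM for Atp5d (203 to 240.0 CPM). All 6 genes were lower on casein with every library in the fit. Without casein control 6, Slc25a1, Pcx, Angptl8 and Pygl were still called, while Taldo1 and Atp5d were not (edgeR adjusted p = 0.104 for each).

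Elemental control 4 was low for Ldha, at 363 CPM against 472 to 527 CPM in the other elemental controls, and for Ugp2, at 63.1 CPM against 99.5 to 111 CPM. Elemental control 1 was high for Hsd17b12, at 329 CPM against 187 to 227 CPM. Elemental control 2 was high for Hsd11b1, at 330.4 CPM against 168 to 212 CPM, and for the summed skeletal muscle markers, at 15441 CPM against 110.2 to 616 CPM. Without elemental control 2 Hsd11b1 was still called, and without elemental control 1 Hsd17b12 was not (edgeR adjusted p = 0.109). Leaving out elemental control 4 raises the elemental level of Ldha and Ugp2, so that they stayed called there does not test their calls. Over the 12 fits with 1 control library left out, Ldha was called in 4 and Ugp2 in 11.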

How the results depend on the processing

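The count of 100 genes for casein control against elemental control was 417 in DESeq2, 313 with lymph node presence as a term, 2 in the fit of the 12 control libraries alone, 177 in the libraries of all diets with lymph node transcripts, 0 in those of all diets without them (2 control libraries against 2) and 6 without elemental control replicate 1 and casein control replicate 6 together. It ran from 24 to 202 when 1 control library was left out. It was 104 with DESeq2 size factors, 102 without mitochondrially encoded genes, 84 without a filter, 102 with the stricter filter, 81 in limma voom and 126 without elemental controls 2 and 6. The 98 lower genes kept a negative fold change wherever they had a value in every one of these settings. These settings reuse libraries on which the genes were chosen, so the signs add no support. The count for oxidized casein MR against elemental MR was 0, 12 in DESeq2 and 0 to 1 with 1 library left out. For the difference between the protein source effects it was 0, and 2 in DESeq2. Lep, at 0.75 with all libraries, ran from -0.345 to 1.17 with 1 library left out, and Adipoq, at 0.07, from -0.162 to 0.256. The causes were not tested. The thinned libraries, the pair of elemental control 1 with casein control 6 and list counts under alternatives were chosen after seeing the data. With 6 mice a diet, a difference that missed the threshold is not shown to be absent.

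No paired analysis was possible because the labels give each mouse its own number and name no litter or batch.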

Other observations

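The following called genes lie outside every list and were picked after their values were seen. Chchd3, a scaffold of the inner membrane cristae, stood at 77.5, 98.1 and 114 CPM in elemental and 48.0, 66.2 and 81.4 CPM in casein controls (1.47-fold lower, adjusted p = 0.0341). Stoml2, an inner membrane scaffold protein, was 1.37-fold lower (adjusted p = 0.0377), the smallest fold of the 98 genes. Coq8a, needed for coenzyme Q synthesis, was 2.17-fold lower (adjusted p = 0.0496). Gja1, a gap junction connexin, was 2.39-fold lower without overlap (adjusted p = 0.0157). Of the 12 fits with 1 control library left out, Gja1 was called in 9, Chchd3 in 5, and Stoml2 and Coq8a in 4 each.

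For the lists that follow, the shares over all genes were 0.659% called, and 9.54% lower and 3.03% higher at an unadjusted p under 0.05. The genes of the methionine cycle and transsulfuration had a median log2 fold change of -0.18. None of 26 was called in edgeR with all libraries or in limma voom, 3 were lower in DESeq2, 2 in edgeR without casein control 5 and 1 without elemental control 2 or 4, and 8 were lower at an unadjusted p under 0.05. Fat expansion markers had a median of 0.25 (0 of 12 called, 1 higher at an unadjusted p under 0.05), genes of the growth hormone and IGF axis 0.04 (0 of 18, 2 lower unadjusted), immediate early genes 0.25 (0 of 22, 1 higher unadjusted) and proliferation genes 0.11 (0 of 24, 0 unadjusted). DESeq2 and limma voom called none in these 4 lists. The median of the fat expansion markers was -0.26 without casein control 5, and edgeR called 1 of them higher with lymph node presence as a term. The sign of the growth hormone and proliferation medians also changed with the library left out.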
